A study of Mus musculus with 2 samples.

Results

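The 10 genes described here encode fibronectin (Fn1), the fibrillins Fbn1 and Fbn2, the fibulins Fbln1, Fbln2 and Fbln5, tenascin C (Tnc), periostin (Postn), elastin (Eln) and SPARC (Sparc). They are noncollagenous proteins of the extracellular matrix. The genes were chosen by name, with earlier results of these data known, out of the 43346 Ensembl genes in the tables, and all 10 were found. Their RNA was measured by total RNA sequencing of whole limbs from mouse embryos of strain B6NCrl at 12.5 days of development, with no treatment and no genetic change named. There was 1 group of 2 biological replicates, each a pool of embryos of both sexes: replicate 1 came from 88 embryos and replicate 2 from 68. Both libraries started from 10 ng of RNA longer than 200 nt, both pools carry the same donor label, and forelimb was not separated from hindlimb. The comparisons are therefore between genes and transcripts within limb RNA, and between its replicates. The libraries held 28832252 and 29249348 expected counts over Ensembl genes.

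Fibronectin is secreted as a dimer that cells assemble into fibrils through integrins, and this provisional matrix carries early mesenchyme before collagen accumulates. Fibrillins polymerise into microfibrils, which hold latent growth factors and serve as a scaffold on which elastin can be laid down with the help of fibulins and lysyl oxidases. Tenascin C, periostin and SPARC are matricellular proteins, which bind matrix and cells and modulate adhesion more than they bear load. In humans, variants of FBN1 cause Marfan syndrome and variants of FBN2 cause congenital contractural arachnodactyly, both with long, thin digits.

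Levels are given in TPM, a unit per length in which all rows of a library sum to 1000000, as mean ± SD over the replicates (n = 2). All 10 genes reached 1 TPM in both libraries, as did 33.5% of all Ensembl genes and 59.2% of the 21474 protein-coding genes. Sparc was highest at 397 ± 19.4 TPM, ahead of Fbln1 at 211 ± 4.55, Fn1 at 160.1 ± 3.40, Fbln2 at 104.8 ± 0.396 and Fbn2 at 68.2 ± 1.23. Postn at 26.7 ± 7.98 and Tnc at 25.8 ± 2.99 came next, above Fbn1 at 10.7 ± 1.39, Fbln5 at 10.3 ± 0.262 and Eln at 8.73 ± 0.156. Neighbours in this order did not overlap between the replicates, except Postn with Tnc and Fbn1 with Fbln5. Sparc, Fbln1 and Fn1 made up 74.7% and 75.5% of the summed level of the 10 genes in replicates 1 and 2. The 10 genes together took 0.231% of the expected counts over Ensembl genes in replicate 1 (exact 95% binomial interval 0.230 to 0.233) and 0.215% in replicate 2 (0.213 to 0.217), and these intervals cover counting error only. In whole tissue, fewer cells of a type and less RNA per cell cannot be told apart.

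**Figure D1:**
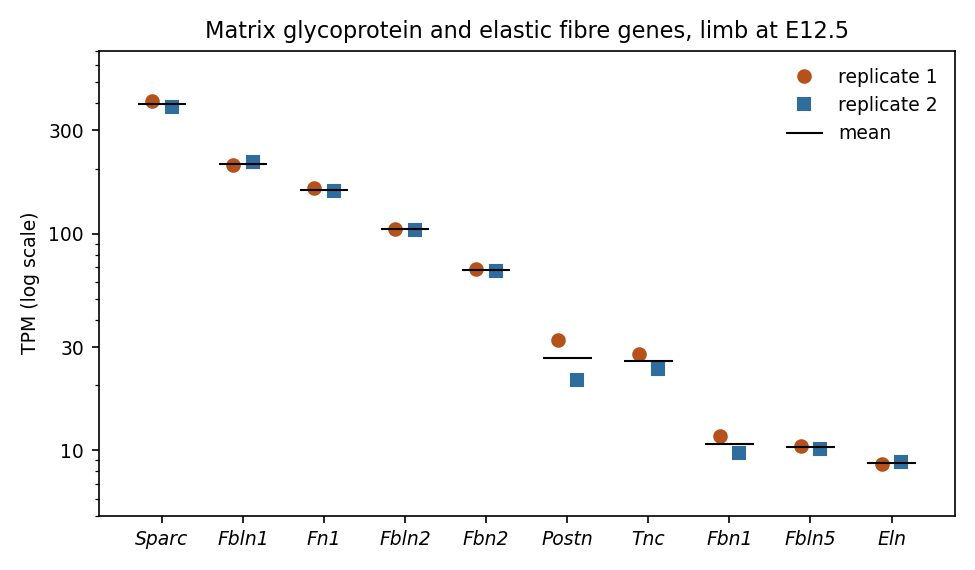
Level of each gene in TPM on a log axis, ordered by mean, with a point for each replicate library and a line at the mean. Sparc stands at 410.8 and 383 TPM and Eln at 8.62 and 8.84 TPM, and the points of the replicates overlap between neighbours for Postn with Tnc and for Fbn1 with Fbln5.

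The deposited levels sum all annotated transcripts of a gene, and these include transcripts annotated as holding an unspliced intron. Transcripts of this class held 41.6% and 50.1% of Fn1, 36.4% and 41.2% of Fbln2 and 44.8% and 43.6% of Sparc in replicates 1 and 2, in IsoPct, the deposited share of a gene's abundance. They held 7.03% and 6.69% of Postn, the 1 such transcript of Fbn1 was listed at 0, and the other 5 genes have none annotated. Over 4561 genes of at least 5 TPM with such a transcript, the median share was 9.59% and 10.7%. The 3 genes with large shares thus lay well above the median gene, and their levels depend on which transcripts are summed. Over protein-coding transcripts alone, an alternative chosen after seeing the data, Sparc had 221.5 ± 7.48 TPM, Fn1 85.3 ± 12.6 TPM and Fbln2 64.2 ± 3.82 TPM. Fbn2 then stood above Fbln2 and Tnc above Postn, so 6 of 10 genes kept their place. Their share of expected counts, which are not scaled by transcript length, was smaller, at 20.9% and 26.7% for Fn1, 16.2% and 18.7% for Fbln2 and 21.04% and 20.21% for Sparc.

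Fn1, which encodes fibronectin, lies on the minus strand at chr1:71585520-71653200 (GRCm38, the coordinates of GENCODE M21). It had 162.5 and 157.7 TPM from 18155 and 16200 expected counts in replicates 1 and 2. Its rank among protein-coding genes was 951. Fibronectin pre-mRNA is spliced at 3 known places, the extra domains B and A (EDB and EDA, each a whole type III repeat) and the variable region, and inclusion of EDB and EDA is a known feature of embryonic and wound matrix, absent from the plasma form made by liver. The 2 whole-exon insertions are shown because the Fn1 result turns on them. Capitals mark the exon and lower case the 12 nt on either side in the mRNA. EDB is exon 25 of 46 at chr1:71613763-71614035 and EDA is exon 33 at chr1:71603660-71603929, both on the minus strand. Sequences are those of GENCODE M21 transcripts.
Fn1 EDB: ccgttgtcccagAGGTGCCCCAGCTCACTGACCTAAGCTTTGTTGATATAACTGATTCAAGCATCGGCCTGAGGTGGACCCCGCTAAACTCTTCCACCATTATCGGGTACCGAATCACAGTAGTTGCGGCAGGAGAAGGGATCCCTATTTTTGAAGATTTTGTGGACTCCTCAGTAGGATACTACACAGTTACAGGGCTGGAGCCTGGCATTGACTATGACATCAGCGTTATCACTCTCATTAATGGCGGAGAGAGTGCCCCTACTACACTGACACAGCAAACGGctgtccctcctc
Fn1 EDA: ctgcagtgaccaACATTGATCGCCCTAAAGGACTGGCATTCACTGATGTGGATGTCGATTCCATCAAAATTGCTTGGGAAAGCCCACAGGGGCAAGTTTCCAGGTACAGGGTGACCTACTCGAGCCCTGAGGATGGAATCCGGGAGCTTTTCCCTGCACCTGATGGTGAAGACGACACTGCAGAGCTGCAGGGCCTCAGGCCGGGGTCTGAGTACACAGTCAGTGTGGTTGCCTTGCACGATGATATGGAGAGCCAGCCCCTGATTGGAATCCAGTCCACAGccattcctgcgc
EDB has 273 nt and EDA 270 nt, so both add whole codons, 91 and 90.

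The longest Fn1 mRNA, with 2477 codons and both extra domains, held 55.0% of Fn1 in replicate 1 and 47.0% in replicate 2, and 13762 and 11485 expected counts. It was the highest of the 17 annotated transcripts in both libraries. Among protein-coding transcripts that span the exon, EDB was held by 95.9% and 97.0% and EDA by 98.3% and 99.5% in replicates 1 and 2. The variable region was present in full, as a 467-nt exon, in 98.2% and 97.5% of protein-coding transcripts, and the form that leaves out 75 nt held 1.55% and 2.52%. The form that leaves out 360 nt held 0.296% and was listed at 0. When noncoding transcripts were counted too, EDB was held by 81.6% and 78.1% and EDA by 70.4% and 64.6%, because retained-intron transcripts skip these exons: one of 2778 nt without EDB held 10.0% and 11.7% of Fn1, and one of 4022 nt without EDA held 22.7% and 26.1%. EDB is present in 1 annotated transcript, which also holds EDA, so a transcript with EDB and without EDA could not be counted.

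**Figure D2:**
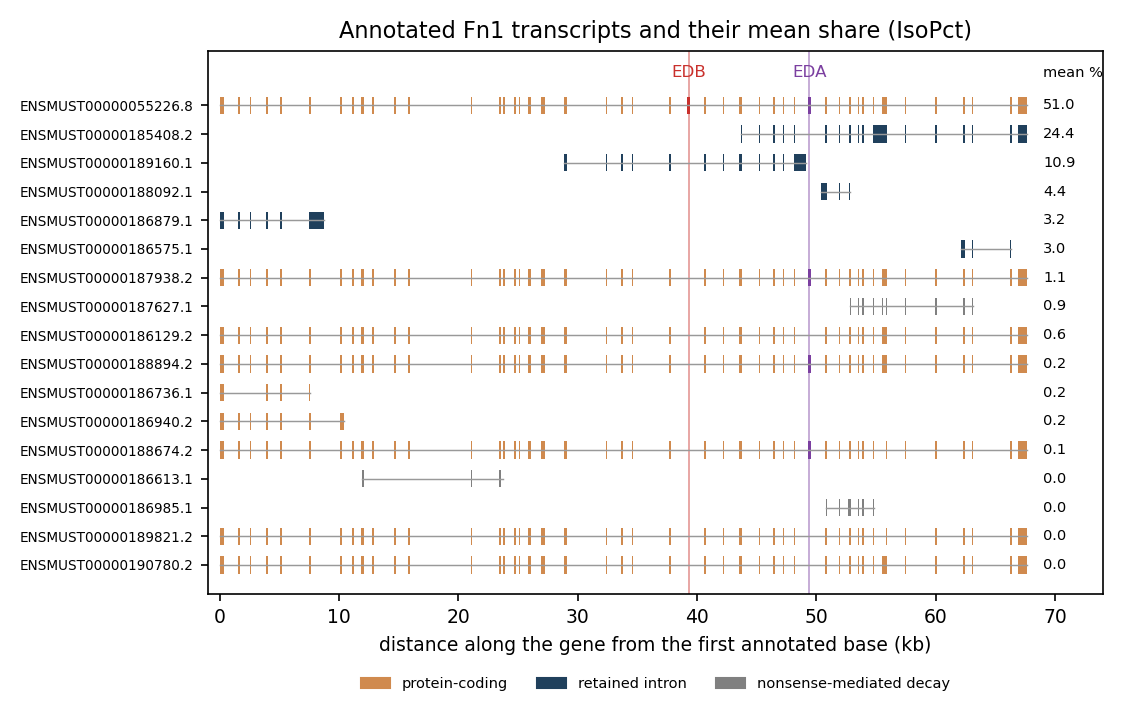
Exons of the 17 annotated Fn1 transcripts, drawn to scale as distance in kb along the gene from its first annotated base, ordered by mean IsoPct, which is printed at the right in percent. Colours give the annotated class, and the vertical lines mark EDB and EDA; the top transcript holds both and has a mean share of 51.0%.

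All 11 genes listed as fibronectin or fibronectin-related receptors (integrin subunits and the proteoglycan syndecan 4) were detected, with a median of 13.7 TPM, against 4.32 TPM for all protein-coding genes. The integrin subunit Itgb1 was highest at 177 and 170.5 TPM, followed by Itgb5 at 73.2 and 67.6 TPM and Itgav at 60.7 and 66.1 TPM, and Itgb6, an epithelial subunit, was lowest at 2.11 and 1.60 TPM. Itga5, whose product pairs with that of Itgb1 in the main fibronectin receptor, had 39.4 and 35.6 TPM. The ratio of Itga5 to Itgav was -0.76 ± 0.19 on the log2 scale (log2 of TPM plus 0.1, n = 2), or 1.69-fold lower. It turned to 0.17 without length scaling, so the order of these subunits depends on the lengths assigned to them.

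Fbn2 and Fbn1 encode the fibrillins, the main protein of microfibrils. Fbn2, on chromosome 18, had 69.05 and 67.31 TPM from 13427 and 13180 expected counts, and Fbn1, at chr2:125300594-125507993 on the minus strand, had 11.7 and 9.70 TPM from 2129 and 1784 expected counts. Fbn2 was higher in both libraries, by 6.36-fold, a log2 ratio of 2.67 ± 0.16 (n = 2), and the expected counts without length scaling gave 2.77. The difference between the genes was much larger than that between replicates. Fbn2 has 1 annotated transcript, of 2907 codons, and of the 3 of Fbn1 a single one, of 9847 nt and 2873 codons, held 100% in both libraries. Another Fbn1 transcript, of 11971 nt, also has 2873 codons and was listed at 0.

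Of the 23 genes listed for microfibrils and elastic fibre assembly, 20 were detected, with a median of 17.0 TPM. The highest were Mfap2, which encodes the microfibril-associated protein MAGP-1, at 462.5 and 431.3 TPM, then Emilin1, at 190.9 and 193.1 TPM, and Mfap4, at 196.1 and 166.4 TPM. Mfap5, which encodes the related MAGP-2, had 1.73 and 1.00 TPM, and Mfap2 stood above it by 315-fold, a log2 ratio of 8.30 ± 0.45. That fold rests on 29 and 24 counts of Mfap5, and the ratio was 7.58 with a pseudocount of 1 TPM. Ltbp2, a latent TGF-beta binding protein gene, was lowest at 0.48 and 0.17 TPM, while its relative Ltbp1, whose product tethers latent TGF-beta to microfibrils, had 43.6 and 36.8 TPM. Adamtsl4, Loxl4 and Ltbp2 were the 3 not detected. The crosslinking enzyme gene Lox had 21.4 and 16.1 TPM.

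Eln, at chr5:134702593-134747323 on the minus strand, encodes tropoelastin, the soluble precursor of elastin. It had 8.62 and 8.84 TPM from 401 and 414 expected counts, the lowest of the 10 genes and rank 9183 among protein-coding genes. Eln was 7.73-fold lower than Fbn2, a log2 ratio of -2.95 ± 0.05, and -5.02 without length scaling. Smooth muscle cells of arteries are a known main source of elastin, and of 6 smooth muscle and pericyte markers 3 were detected. The actin gene Acta2 had 121.9 and 113.6 TPM, the receptor gene Pdgfrb 47.3 and 42.3 TPM and Tagln 6.86 and 4.99 TPM, while the defining marker Myh11, smooth muscle myosin, had 0.17 TPM in both libraries.

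The fibulins bind elastin, fibronectin and basement membranes and differed widely in level. Fbln1, at chr15:85205949-85286535 on the plus strand, had 207.9 and 214.4 TPM, Fbln2, at chr6:91212455-91272540 on the plus strand, had 105.1 and 104.5 TPM, and Fbln5, at chr12:101746565-101819055 on the minus strand, had 10.5 and 10.2 TPM. Fbln1 was 2.01-fold higher than Fbln2 (log2 ratio 1.01 ± 0.04). Fbln5, a short fibulin needed for elastic fibres in mice, was 20.2-fold lower than Fbln1 (-4.34 ± 0.07) and 10.1-fold lower than Fbln2 (-3.33 ± 0.03). Without length scaling these log2 ratios were -3.06 and -2.54. Over protein-coding transcripts alone the log2 ratio of Fbln1 to Fbln2 was 1.72 and that of Fbln5 to Fbln2 was -2.62. The other fibulins, named after their values were seen, were Efemp2 (fibulin-4) at 117 TPM on average, Hmcn1 (fibulin-6) at 20.6, Efemp1 (fibulin-3) at 17.0 and Fbln7 at 2.21. Efemp2 was thus the highest of the short fibulins, and per length Fbln5 lay below Efemp1. Expected counts gave the reverse order, with 1129 and 1097 for Fbln5 against 598 and 467 for Efemp1.

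Fbln1 is known for alternative C-terminal ends that follow a shared body, and the first 60 coding bases of each end are shown in capitals after the last 12 shared bases in lower case. The 685-codon end (fibulin-1C) begins at chr15:85251445-85251504 and the 705-codon end (fibulin-1D) at chr15:85263259-85263318, both on the plus strand of GRCm38.
Fbln1 685-codon form: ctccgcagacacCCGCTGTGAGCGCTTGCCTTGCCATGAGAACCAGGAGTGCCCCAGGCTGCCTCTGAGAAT
Fbln1 705-codon form: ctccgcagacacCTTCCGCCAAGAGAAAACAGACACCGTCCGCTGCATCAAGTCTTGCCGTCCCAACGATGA
The 685-codon form held 87.7% and 87.6% of Fbln1, against 12.3% and 12.4% for the 705-codon form. The replicates nearly coincided, and by expected counts the 685-codon form held 81.3% and 81.2%.

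Fbln2 has a 141-nt exon, exon 9 of 18, at chr6:91259630-91259770 on the plus strand, which adds 47 codons and is shown because it was almost absent here. Capitals mark the exon and lower case its neighbours in the mRNA.
Fbln2 exon 9: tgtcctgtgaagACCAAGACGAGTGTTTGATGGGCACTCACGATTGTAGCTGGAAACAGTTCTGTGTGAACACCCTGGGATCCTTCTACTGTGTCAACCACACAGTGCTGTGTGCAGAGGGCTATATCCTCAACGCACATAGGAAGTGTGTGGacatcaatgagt
The mRNA without it, of 1174 codons, held 61.0% and 57.5% of Fbln2. The mRNA with it, of 1221 codons, was listed at 0 in replicate 1 and at 0.64% in replicate 2, from 0 and 59.2 expected counts. A 1612-nt retained-intron transcript held the next share, 34.7% and 39.4%.

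Tenascin C, a hexameric protein that weakens cell adhesion and marks condensing mesenchyme and tendon, is encoded by Tnc at chr4:63959785-64047015 on the minus strand. Tnc had 27.9 and 23.7 TPM from 3654 and 3133 expected counts, 6.20-fold lower than Fn1 (log2 ratio -2.63 ± 0.14, and -1.72 over protein-coding transcripts). A 273-nt exon, exon 14 of 26, at chr4:63984460-63984732 on the minus strand, lies in 1 of the 2 main mRNAs. Like EDB it adds 91 codons, and capitals mark it. The 2 mRNAs, of 7106 nt with the exon and 7100 nt without it, have 26 exons each. They therefore differ elsewhere too, and their shares do not rest on this exon alone.
Tnc exon 14: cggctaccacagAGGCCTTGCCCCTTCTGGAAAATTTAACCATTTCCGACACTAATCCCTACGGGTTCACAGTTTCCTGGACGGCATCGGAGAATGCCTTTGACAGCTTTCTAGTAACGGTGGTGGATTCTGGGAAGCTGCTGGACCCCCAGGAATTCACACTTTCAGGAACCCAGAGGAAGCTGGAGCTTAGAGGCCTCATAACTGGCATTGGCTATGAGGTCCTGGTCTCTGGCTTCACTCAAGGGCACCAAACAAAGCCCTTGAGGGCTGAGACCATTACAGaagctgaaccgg
The 2110-codon mRNA with the exon held 24.1% of Tnc in replicate 1 and 13.9% in replicate 2, from 883 and 436 expected counts. The mRNA of 2019 codons without the exon held 75.1% and 86.1%. The replicates lay further apart here than for EDB, EDA or the ends of Fbln1. The other alternative repeats known in tenascin C lie in both main annotated mRNAs and could not be assessed.

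Postn, at chr3:54361109-54391037 on the plus strand, encodes periostin, a fasciclin-domain protein of periosteum, tendon and valves. It had 32.4 and 21.1 TPM from 1629 and 1176 expected counts. The length that the quantifier assigned to the gene was 2788 nt in replicate 1 and 3059 nt in replicate 2, so the TPM differ more than the counts. Postn did not separate from Tnc, with log2 ratios of 0.21 in replicate 1 and -0.17 in replicate 2 (-1.29 on average without length scaling), while the deposited credibility intervals were 29.2 to 34.8 TPM for Postn against 26.4 to 28.2 TPM for Tnc in replicate 1, and 19.56 to 23.05 TPM against 22.3 to 24.0 TPM in replicate 2. Its paralogue Tgfbi, a fasciclin-domain gene too, had 91.8 and 93.0 TPM, and Postn was 3.53-fold lower (log2 ratio -1.82 ± 0.45).

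Periostin mRNAs differ in small cassette exons near the C-terminus, and the 2 that vary among the annotated mRNAs are shown with capitals for the exon. Exon 17 of 23 lies at chr3:54380412-54380492 and exon 21 at chr3:54385671-54385754, on the plus strand.
Postn exon 17: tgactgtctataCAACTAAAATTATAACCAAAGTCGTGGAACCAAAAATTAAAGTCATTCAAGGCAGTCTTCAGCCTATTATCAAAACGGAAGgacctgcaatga
Postn exon 21: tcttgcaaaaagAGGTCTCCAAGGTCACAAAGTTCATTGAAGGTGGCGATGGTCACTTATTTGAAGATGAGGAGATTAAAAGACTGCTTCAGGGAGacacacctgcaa
They have 81 and 84 nt, or 27 and 28 codons. The mRNA with exon 17 and without exon 21 held 47.7% and 61.4% of Postn in replicates 1 and 2, and that with exon 21 and without exon 17 held 31.9% and 28.1%. The full mRNAs with both exons (838 codons) and with neither (783 codons) were listed at 0 in both libraries. Exon 17 was held by 51.3% and 65.8% of the transcripts that span it and exon 21 by 36.2% and 29.1%, and the spread between replicates, an SD of 10.3 and of 5.07 percentage points, leaves their shares poorly fixed. A 655-nt protein-coding fragment held 13.4% and 3.82% of Postn in replicates 1 and 2, from 45.1 and 8.44 expected counts. It leaves out both exons and is counted as skipping in the shares of each.

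**Figure D3:**
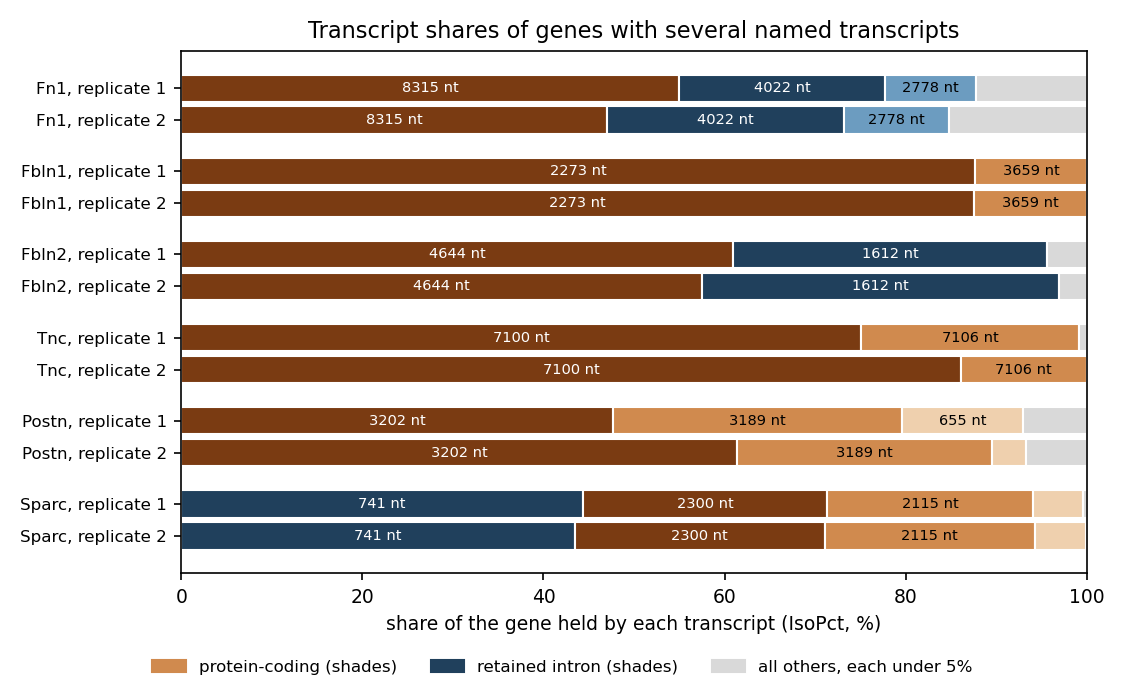
Share of each gene held by its named transcripts, those with a mean IsoPct of at least 5%, in percent of the gene's abundance, as stacked bars with 1 bar for each replicate. Blue shades are retained-intron transcripts, brown shades protein-coding ones, and grey all others. The replicates nearly coincide for Fbln1 (87.7% and 87.6% for the 685-codon form) and lie apart for Tnc (75.1% and 86.1%) and Postn (47.7% and 61.4%).

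Sparc, at chr11:55394500-55423183 on the minus strand, encodes SPARC (osteonectin), a collagen-binding matricellular protein. It had 410.8 and 383.3 TPM from 10541 and 10018 expected counts and ranked 335 among protein-coding genes. Sparc was 2.48-fold higher than Fn1 per length (log2 ratio 1.31 ± 0.04), but its counts without length scaling were lower (-0.74). It was 19.5-fold higher than its paralogue Sparcl1, which had 20.5 and 20.0 TPM (log2 ratio 4.29 ± 0.05, 3.44 over protein-coding transcripts and 3.16 without length scaling). The full mRNAs of Sparc differ in their leading exon and at the start of exon 3, at chr11:55407220-55407279. Capitals mark the 3 bases that the 301-codon form leaves out. The first 12 bases shown, in lower case, precede exon 3 in the mRNA, and the rest are its first 60 bases.
Sparc exon 3: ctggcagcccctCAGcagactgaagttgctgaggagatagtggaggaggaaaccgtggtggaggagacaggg
The 302-codon form held 26.9% and 27.6% of Sparc and the 301-codon form 22.8% and 23.2%. Of the 2 forms together, the 302-codon form was thus 54.1% and 54.3%. The largest single share, 44.4% and 43.5%, was given to a 741-nt retained-intron transcript.

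Of 18 further matricellular genes, 15 were detected, with a median of 6.16 TPM. Tgfbi led, followed by Smoc2, a SPARC relative, at 66.6 and 59.4 TPM and the thrombospondin gene Thbs1 at 59.2 and 47.9 TPM. The tenascin relatives of Tnc were low: Tnn had 0.20 and 0.11 TPM, Tnxb 0.01 and 0 TPM, and Tnr was listed at 0 in both libraries. Of the 4 tenascin genes, Tnc alone reached 1 TPM in either library.

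**Figure D4:**
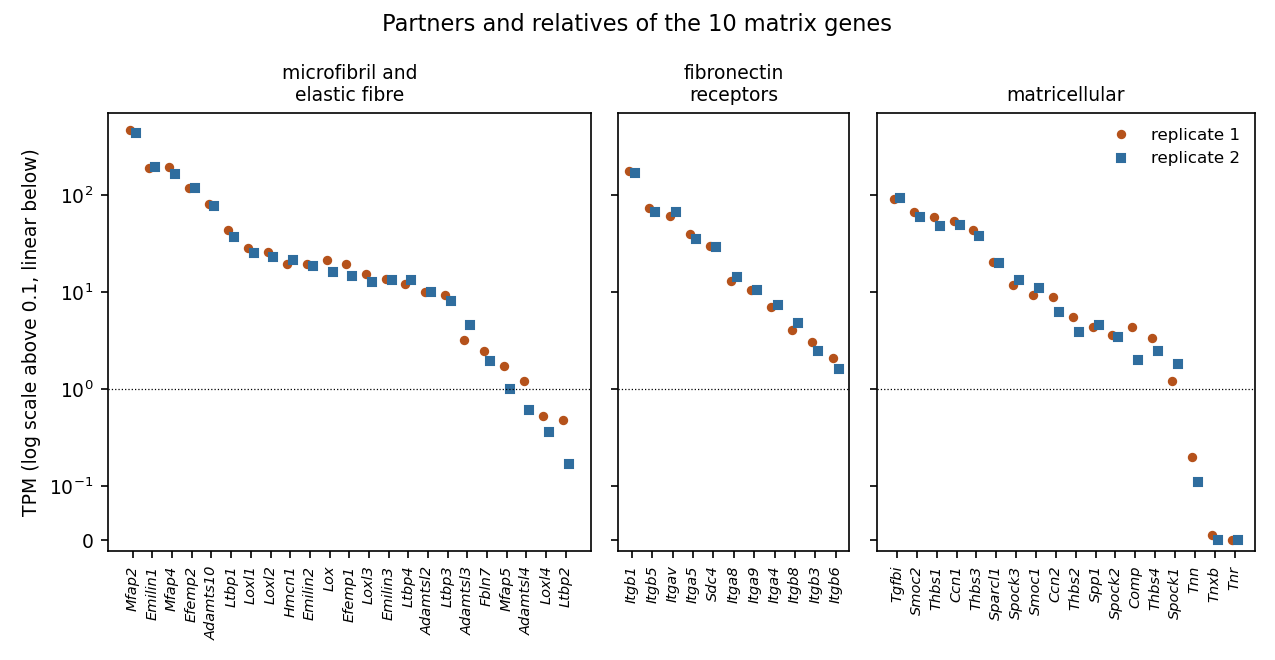
Level in TPM of the genes of the 3 lists of partners and relatives, with a point for each replicate, ordered within a list by mean; the axis is logarithmic above 0.1 TPM and linear below, and the dotted line marks 1 TPM, the limit of detection used. Mfap2 (447 TPM on average), Itgb1 (173.7 TPM) and Tgfbi (92.4 TPM) lead the lists, and Tnr lies at 0.

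For each of 18580 genes, rounded counts of the replicate libraries were set against each other in a conditional binomial test (exact, two-sided, Benjamini-Hochberg adjustment). The test covers counting error only and compares these 2 libraries, not conditions. With the limits set at 0.05 for the adjusted p and 2-fold for the ratio, 0 of the 10 genes was called, against 1.85% of all tested genes (0.84% higher in replicate 1 and 1.01% higher in replicate 2). In edgeR's exact test, 0 of the 10 was called with or without the fold limit, against 79 and 136 of all 18580 genes. Its estimate of replicate spread comes from these same 2 libraries, so an absence of calls says little. By that test 3 (Postn, Fbn1 and Tnc) had an unadjusted p under 0.05, as had 775 of the 18580 genes. With no fold limit the binomial test called 6 of 10, all higher in replicate 1 (Fn1, Fbn1, Fbn2, Tnc, Postn and Sparc), against 16.4% of all tested genes in either direction (9.3% higher in replicate 1 and 7.1% higher in replicate 2). Deeply counted genes are called more often: among 9494 genes with at least the 815 counts of Eln, the lowest of the 10, 23.8% were called and 13.8% were higher in replicate 1. Most of the 10 lay far above this floor, so these shares are not matched to their depth. The median log2 ratio of the 10 genes was 0.08, against 0.01 for all tested genes.

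Postn differed most, 1.41-fold higher in replicate 1 (log2 ratio 0.49, adjusted p = 4.84e-17 by the binomial test), and its ratio was larger in size than that of 97.8% of 11093 genes of at least 5 TPM. In edgeR's exact test its adjusted p was 0.0727 and its unadjusted p 0.000591. Fbn1 was 1.21-fold higher in replicate 1 (log2 ratio 0.28, adjusted p = 1.00e-07), Tnc 1.18-fold (0.24, 2.95e-10) and Fn1 1.14-fold (0.19, 3.21e-30), all by the binomial test. These are ratios of counts, and the TPM of Fn1 summed over all transcripts lay closer, at 162.5 and 157.7. Over protein-coding transcripts alone Fn1 had 94.3 and 76.4 TPM, further apart than its counts. Its assigned gene length was 6062 nt in replicate 1 and 5545 nt in replicate 2. Sparc and Fbn2 differed by 1.07-fold and 1.03-fold, with adjusted p = 6.79e-05 and 0.0458, and the call of Fbn2 was lost with TMM scaling (adjusted p = 0.110). Fbln1, Fbln2, Fbln5 and Eln had log2 ratios of -0.03, 0.05, 0.06 and -0.03 and did not pass the binomial test. The fibulins and elastin thus gave the replicate ratios nearest to 0 together with Fbn2.

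**Figure D5:**
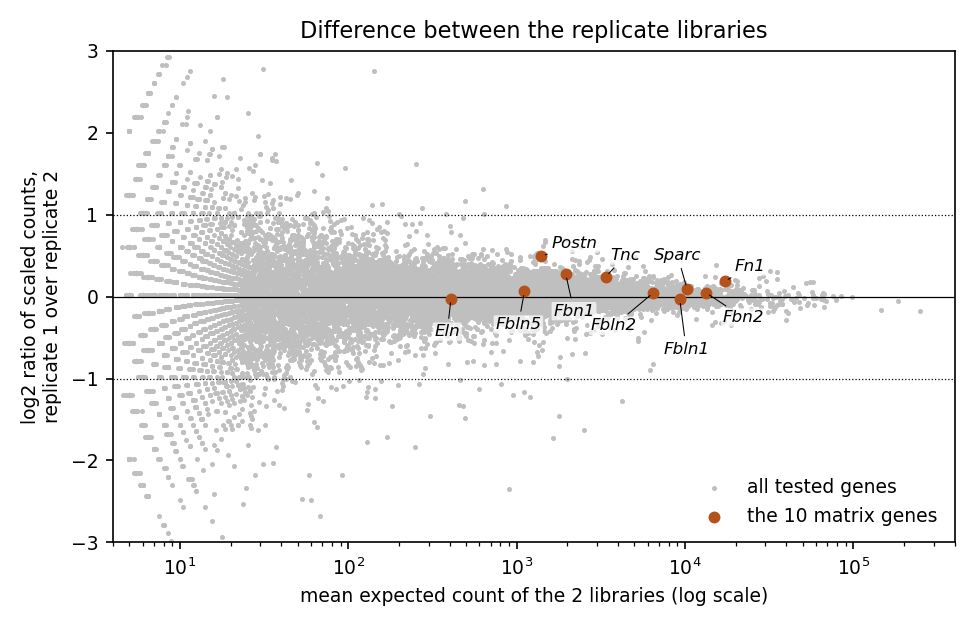
Log2 ratio of scaled counts, replicate 1 over replicate 2, against the mean expected count on a log axis; grey points are the tested genes, coloured points the 10 genes, and dotted lines mark 2-fold. Postn lies highest of the 10 at 0.49 and none reaches the 2-fold lines; 105 tested genes beyond 3 log2 units or without counts in 1 library are not drawn.

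Partner genes were compared between the replicates in the same test, where 16.4% of all tested genes and 23.8% of those with at least 815 counts were called. With no fold limit, 9 of 23 microfibril and elastic fibre genes were called, all higher in replicate 1 (Mfap2, Mfap4, Ltbp1, Ltbp3, Lox, Loxl1, Loxl2, Loxl3 and Efemp1), with a median log2 ratio of 0.14 over the list. Of the receptor genes 5 of 11 were called, all higher in replicate 1, which became 2 of 11 with DESeq2 size factors, and the list's median was 0.07. Of the matricellular genes 8 were called, 7 higher in replicate 1, with a median of 0.13 over the 16 tested. The cartilage and tendon matrix gene Comp passed the 2-fold limit, with 4.34 TPM in replicate 1 and 2.01 TPM in replicate 2 (log2 ratio 1.12, adjusted p = 2.65e-08 by the binomial test). No gene of the 3 lists was called by edgeR's exact test, which called only 136 of all 18580 genes with no fold limit.

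Markers of cell types within the limb differed between the pools as well. All 9 limb mesenchyme markers were detected, led by the homeobox gene Msx1 at 380.2 and 410.7 TPM, and their sum was 1132 TPM in replicate 1 and 1197 TPM in replicate 2, with 3 of 9 genes higher in replicate 1. The forelimb gene Tbx5 had 35.2 TPM in replicate 1 and 24.1 TPM in replicate 2 (1.47-fold, log2 ratio 0.56, adjusted p = 0.00353 by edgeR's exact test). The hindlimb genes Pitx1, at 142.4 and 172.9 TPM, and Tbx4, at 32.3 and 37.1 TPM, had log2 ratios of -0.29 and -0.21 (adjusted p = 1.70e-26 and 0.00018 by the binomial test, and 0.349 and 1 by edgeR's exact test). Cartilage markers were higher in replicate 1 for 8 of 8 genes, as were 9721 of all 18580 tested genes. Their sums were 939 and 803 TPM and their median log2 ratio was 0.47. Matn1 (25.3 and 10.2 TPM) and Acan (6.26 and 3.13 TPM) passed the 2-fold limit. The markers with the highest levels differed less, with log2 ratios of 0.30 for Col2a1 and 0.13 for Col9a1. Sox9 was nearly equal, at 207.7 and 206.3 TPM (log2 ratio 0.02), and did not pass the binomial test. Tendon and connective tissue markers were higher in replicate 1 for 6 of 6 genes, with sums of 369 and 292 TPM and a median of 0.29. Neuron and Schwann cell markers were lower in replicate 1 for 4 of 6 genes, with sums of 50.2 and 64.6 TPM. Nefl (4.19 and 10.5 TPM) and Prph (0.16 and 3.94 TPM) passed the 2-fold limit, and Tubb3 had a log2 ratio of -0.68. Sox10, Ngfr and Erbb3, with log2 ratios of 0.09, 0.11 and -0.14, did not pass the binomial test. Liver markers summed to 18.4 and 12.1 TPM, higher in replicate 1 for 4 of 4 tested genes, with Fgb at 0.03 and 0.04 TPM. The sums of the other lists were 835 and 812 TPM for muscle, 353 and 329 TPM for ectoderm, 197 and 193 TPM for endothelium, 177 and 162 TPM for smooth muscle and pericytes, 8539 and 8512 TPM for erythroid cells and 85.4 and 77.2 TPM for macrophages. No marker was at 0 in both libraries, and the part of any cell type, or of the proportion of forelimb to hindlimb, in the ratios of Postn, Fbn1, Tnc and Fn1 was not tested.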

How the data were processed

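Gene and transcript tables of 2 biological replicates of 1 group were used as deposited; the series title marks the record as superseded by a later one, which was not used here. Quantification used mm10 (GRCm38) with GENCODE M4, as a text file deposited for each sample states. No source used here names the quantifier, its version, the aligner or the strand setting, so reads of genes overlapping on opposite strands may be mixed. The expected counts, which are estimated and need not be whole, were made by the authors' quantifier for genes and transcripts, per the file headers. The deposited TPM and FPKM values are scaled by effective length, which was the length minus 99 nt. The deposited percent values (IsoPct) give each transcript's share of its gene. The deposited credibility bounds of TPM were copied.

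Members, lists and pairs were chosen with earlier results of these data known. Symbols and coordinates came from GENCODE M21, matched by identifier without version (42462 of 43346 genes); all 53 transcripts of the 10 genes matched, 49 with the same length. Where lengths differ (Eln, Fbn2 and 2 Postn transcripts), exon classes follow M21. Detection required 1 TPM in both libraries, and ratios used log2 of TPM plus 0.1. The libraries are not 1 library deposited again (chi-square per degree of freedom 6.21 over 18580 genes). With 1 group, edgeR's quasi-likelihood test has no contrast, so rounded expected counts of the libraries were compared by a conditional binomial test (exact) where the sum was at least 10 counts, and by edgeR's exact test, whose common biological coefficient of variation of 0.0718 was estimated from the same 2 libraries. No molecular identifiers are recorded. The binomial test was tested on simulated data. The genes named are the 10, all genes of the 12 pairs, and of each list the 3 highest, the lowest and those called at 2-fold; other list genes were named after their values were seen, and marker lists are given mainly by their sums. Alternatives changed the scaling, count minimum, pseudocount, unit and transcripts summed, and left out each replicate. Protein features were not analysed here. The software was edgeR 4.0.16 and, for size factors only, DESeq2 1.42.0 under R 4.3.3, and matplotlib 3.10.9, pandas 2.3.3, scipy 1.17.1 and numpy 2.4.6 under Python 3.11.15.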

Additional observations from a re-analysis of the deposited data

How the results depend on the processing

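No paired analysis was possible because the study has 1 group. Of 398 recomputed values, those answering a comparison that moved are these. The number of genes called at 2-fold was 343, 75 with at least 100 counts and 79 with edgeR's exact test; with no fold limit it was 3048 and 136 with edgeR. Under edgeR's exact test the calls fell to 0 for the 10 genes, for microfibril genes, for receptors and, with either limit, for matricellular genes, and DESeq2 size factors left 2 receptor calls of 5. Detection at 5 TPM left 9 matricellular genes of 15. In the order of levels, 2 of 10 genes kept their place without length scaling, 6 over protein-coding transcripts (an alternative chosen after seeing the data), and between 6 and 10 when a replicate was left out.

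Without length scaling, log2 ratios were 0.52 for Fbln1/Fbln2, -3.06 for Fbln5/Fbln1, -2.54 for Fbln5/Fbln2, -2.34 for Tnc/Fn1, -1.29 for Postn/Tnc, -5.02 for Eln/Fbn2, -0.74 for Sparc/Fn1, 3.16 for Sparc/Sparcl1 and 0.17 for Itga5/Itgav; the signs of Postn/Tnc, Sparc/Fn1 and Itga5/Itgav were turned. Over protein-coding transcripts they were 1.72 for Fbln1/Fbln2, -2.62 for Fbln5/Fbln2, -1.72 for Tnc/Fn1, -0.083 for Postn/Tnc, 1.38 for Sparc/Fn1 and 3.44 for Sparc/Sparcl1. Leaving out a replicate gave between -0.17 and 0.21 for Postn/Tnc. A pseudocount of 1 gave -4.23 for Fbln5/Fbln1, -3.22 for Fbln5/Fbln2, -2.83 for Eln/Fbn2, 4.23 for Sparc/Sparcl1 and 7.58 for Mfap2/Mfap5, which was 7.52 with posterior mean TPM.

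By expected counts (also chosen after seeing the data), EDB was held by 90.5%, EDA by 80.9%, the Fbln1 685-codon form by 81.2% and the Sparc 302-codon form by 56.4%; posterior shares in coding transcripts were 94.98% for EDB and 97.9% for EDA. Causes of these shifts were not tested. Transcript shares rest on the annotated transcripts, and a ratio between genes on assigned lengths. With 2 replicates an exact sign-flip test cannot go below p = 0.5, so ratios carry no test.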
